A study of Mus musculus with 6 samples.

Results

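Genes of the dystrophin-glycoprotein complex were examined in satellite cells (SCs), the stem cells of skeletal muscle, that lack the transcription factor Slug. The members were chosen by name. They are *Dmd*, *Utrn*, *Dag1*, *Sgca*, *Sgcb*, *Sgcd*, *Sgce* and *Dtna*, 8 of the 22180 genes measured. Each has 1 probe set that carries its symbol alone. SCs came from uninjured hindlimb muscles of adult male Slug-/- mice and of adult male Slug+/+ mice, both on the C57BL6 strain, with 3 samples and 1 Affymetrix whole-transcript array for each sample. Slug-/- mice lack the gene in every tissue, not in SCs alone. Cells were sorted as positive for CD34 and integrin α7 and negative for CD45, Sca1, CD11b and CD31, and RNA was taken without culture. Replicates are labelled biological, but no label ties a sample to a single mouse, and the p-values thus cover only the spread between these samples.

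The dystrophin-glycoprotein complex links the actin cytoskeleton to the extracellular matrix across the plasma membrane. In muscle fibres it protects the membrane during contraction, and its loss causes muscular dystrophies. Dystrophin is also made by activated SCs, where it binds the kinase Mark2 and takes part in polarity and asymmetric division. Slug is a zinc-finger repressor that binds E-boxes, DNA sites with the letters CANNTG, and CAGGTG is a form it is known to bind.

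Because the comparison concerns a repressor of E-box genes, the bases before the transcription starts of the complex genes were read from RefSeq (build GRCm38.p6). Of the 8 genes, 6 had an entry, with 8 entries in all, of which the pair for *Dag1* overlap. The 250 bases before the start held CAGGTG, on either strand (CAGGTG or CACCTG), in 0 of these 8 entries, while 17.2% of all 32851 entries held it. Any CANNTG, which counts the letters above as well and reads alike on both strands, was found in 6 of the 8 entries and in 66.2% of all. Entries for *Dmd*, the gene of dystrophin, for *Dag1*, the gene of dystroglycan, and for *Sgca*, a sarcoglycan gene used by muscle cells, are shown because these genes stand for the cytoskeletal, matrix-binding and sarcoglycan parts of the complex. Where a gene has a pair of entries, the upstream one is shown. The entry for *Utrn* is counted but not shown, because it ends in a run of pyrimidines and AG, as introns do, and may not lie before a true start. It held 7 CANNTG, and 0.0761% of all entries held 7 or more. Capitals mark CANNTG.
Dmd, chrX:82948620-82948869, plus strand: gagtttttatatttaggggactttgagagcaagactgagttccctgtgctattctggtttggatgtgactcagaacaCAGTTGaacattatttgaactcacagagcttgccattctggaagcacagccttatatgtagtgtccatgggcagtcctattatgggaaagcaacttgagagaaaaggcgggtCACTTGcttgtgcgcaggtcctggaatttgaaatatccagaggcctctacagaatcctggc
Dag1, chr9:108263959-108264208, minus strand: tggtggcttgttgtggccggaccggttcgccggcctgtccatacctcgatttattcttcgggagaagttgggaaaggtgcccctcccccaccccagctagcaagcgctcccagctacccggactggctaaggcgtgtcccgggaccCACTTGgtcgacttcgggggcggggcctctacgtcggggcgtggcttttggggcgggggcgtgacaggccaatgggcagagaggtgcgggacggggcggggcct
Sgca, chr11:94976328-94976577, minus strand: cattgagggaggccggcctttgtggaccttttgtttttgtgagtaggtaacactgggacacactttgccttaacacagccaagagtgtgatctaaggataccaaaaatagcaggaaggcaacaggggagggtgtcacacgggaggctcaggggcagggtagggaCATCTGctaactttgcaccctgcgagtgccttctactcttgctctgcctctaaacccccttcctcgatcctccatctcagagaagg
A match is a run of letters and not a measured site, and Slug binding was not measured on these arrays.

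The values are log2 expression values, so a difference of 1 is a fold of 2. Background was judged from the 1105 olfactory receptor genes measured, which were taken to be mostly unused in SCs. Values over their 95th percentile of 3.05 are called above background. *Snai2*, which encodes Slug, had 5.15, 5.10 and 4.59 on the Slug-/- arrays, against 6.25, 6.66 and 6.53 on the Slug+/+ arrays. It is not known here whether its probes lie in the deleted part, and probes outside it would not check the labels. *Pax7*, the transcription factor that marks SCs, had 8.70, 9.41 and 9.43 in Slug-/- SCs, against 9.40, 9.13 and 9.57 in Slug+/+ SCs, with overlap. *Cd34* had 8.26, 8.75 and 8.38 in Slug-/- SCs, against 8.31, 8.12 and 8.82 in Slug+/+ SCs, also with overlap. All 10 markers of SCs averaged above background. Of the genes of markers sorted out, *Ptprc* (CD45) and *Itgam* (CD11b) were below it on all 6 arrays. *Pecam1* (CD31) was above it on all 6, with means of 3.74 in Slug-/- and 3.59 in Slug+/+ SCs. *Ly6a* (Sca1) was not analysed. Limma, which borrows information on variance across genes, called 0 of 22180 genes at an adjusted p under 0.05 (0.0%), with 1286 at an unadjusted p under 0.05. The count from a plain unpaired test was 0 as well, and 1178 genes had an unadjusted p under 0.05 in it. Array medians lay between 2.87 and 2.96, and the number of arrays limits the precision.

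None of the 8 complex genes passed the test in Slug-/- SCs. At a fold over 2 with an unadjusted p under 0.05, the thresholds of the study, limma called 0 of 8, where 0.897% of all genes passed. At an unadjusted p under 0.05 alone it also called 0 of 8, against 5.8% of all genes, and the plain unpaired test called 0 of 8 at both. The Slug-/- and Slug+/+ arrays overlapped for all 8 genes, whereas 10.6% of all genes had arrays that did not overlap. Differences ran between -0.28 for *Sgcd* and 0.50 for *Dtna*, with 6 positive and 2 negative and a median of 0.17. Over all genes the median difference was -0.01 and 48.4% were positive. The median size of the difference, whatever its sign, was 0.27 for the 8 genes and 0.18 for all genes. These sets differ in brightness, as 7 of the 8 genes but 53.4% of all genes averaged above background. Among genes above the median signal the median difference was 0.04. The positive differences include that of *Sgce*, at 0.002.

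**Figure D1:**
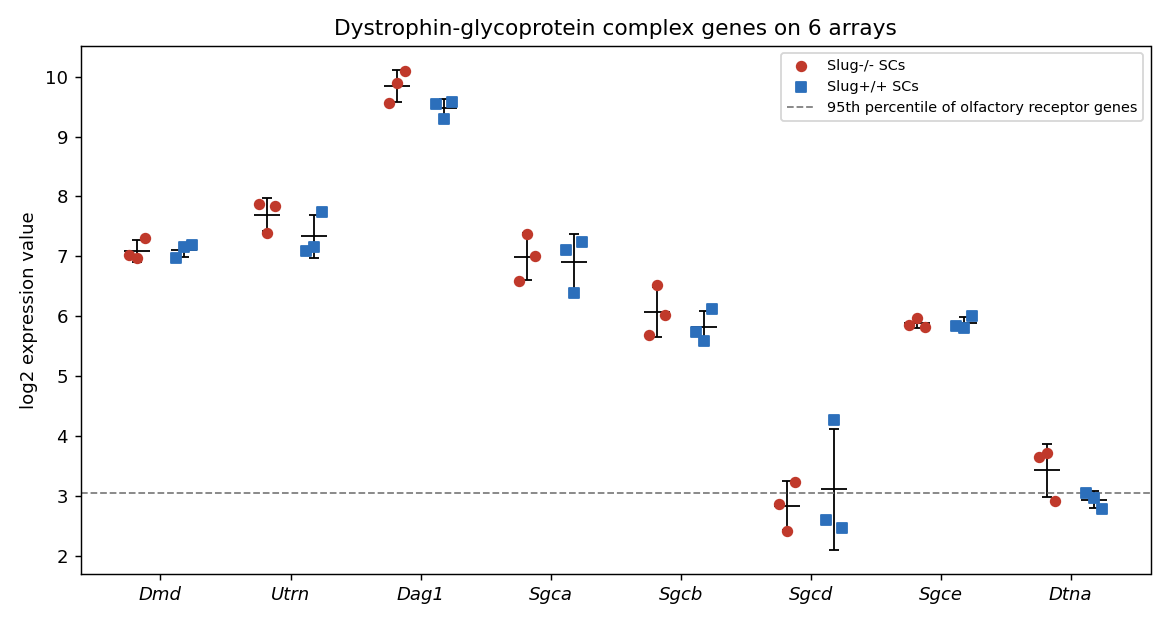
Log2 expression value (y axis) of the 8 genes (x axis) on the 3 Slug-/- arrays (red circles) and the 3 Slug+/+ arrays (blue squares), with the mean and SD in black and the background guide of 3.05 dashed. The groups overlap for every gene, and only *Sgcd* and *Dtna* have arrays under the dashed line.

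For 6 of the 8 genes the interval of the difference was narrow enough to lie inside a fold of 2 in both directions. These were *Dmd*, *Utrn*, *Dag1*, *Sgca*, *Sgcb* and *Sgce*, the same 6 genes that were above background on all 6 arrays. Of all genes, 76.2% had such an interval. The intervals are 95% intervals from limma, each for 1 gene and not adjusted over genes. The other 2 genes, *Sgcd* and *Dtna*, had intervals that reached past a fold of 2 in one direction.

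**Figure D2:**
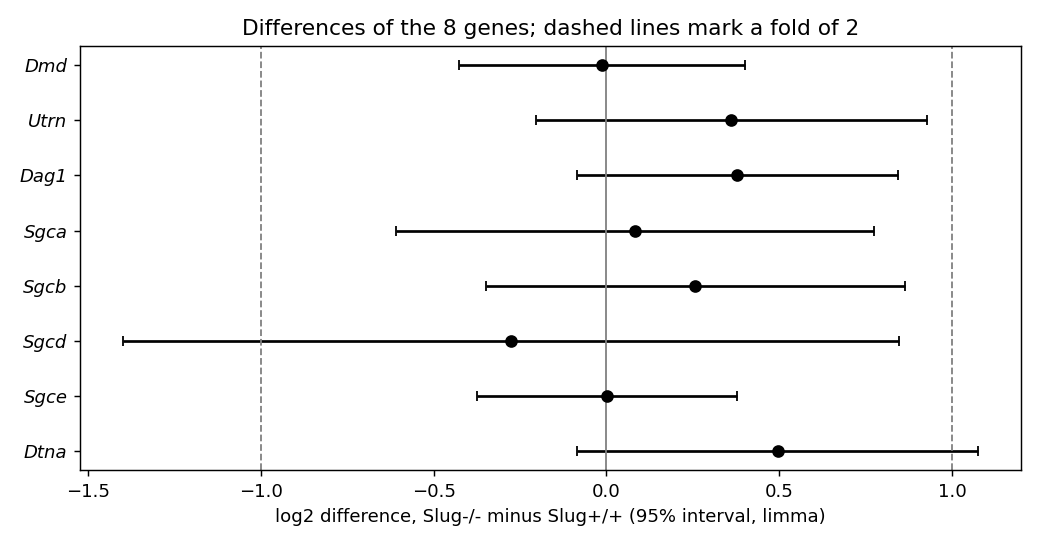
Log2 difference, Slug-/- minus Slug+/+ (x axis), of the 8 genes (y axis), with points for limma's estimate, bars for the 95% interval and dashed lines at a fold of 2. Every bar crosses 0, that of *Sgcd* passes the lower dashed line at -1.40 and that of *Dtna* the upper one at 1.07.

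*Dmd* encodes dystrophin, the long rod that ties actin to the membrane complex. Its log2 value was 7.01, 6.96 and 7.30 on the Slug-/- arrays, against 6.97, 7.16 and 7.19 on the Slug+/+ arrays. The highest and the lowest of the 6 arrays were both Slug-/-, so the range of Slug+/+ arrays lay inside that of Slug-/- arrays. The means were 7.09 ± 0.18 in Slug-/- and 7.11 ± 0.12 in Slug+/+ SCs (SD, n = 3 each), a difference of -0.01 (95% interval -0.43 to 0.40, adjusted p = 0.993 from limma). *Dmd* was also among the steadier genes within genotypes, with a pooled SD of 0.15, and 15.5% of all genes had a smaller one. The probe set gives 1 value for the gene, so long and short dystrophin transcripts cannot be told apart.

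*Utrn* encodes utrophin, a paralog of dystrophin that binds the same partners and in adult fibres is kept mainly at the neuromuscular junction. It had 7.87, 7.38 and 7.83 on the Slug-/- arrays, against 7.09, 7.16 and 7.75 on the Slug+/+ arrays. All Slug-/- arrays were above Slug+/+ replicates 1 and 2, and only Slug+/+ replicate 3 reached into their range. The means were 7.70 ± 0.27 in Slug-/- and 7.33 ± 0.36 in Slug+/+ SCs (SD, n = 3 each), a fold of 1.28 (difference 0.36, 95% interval -0.20 to 0.93, adjusted p = 0.909 from limma). Without Slug+/+ replicate 3 the difference was 0.57, with an unadjusted p of 0.0437 and an adjusted p of 0.667 from limma.
The change of *Utrn* was set against that of *Dmd* within each array, as *Utrn* minus *Dmd* on the log2 scale. This was 0.86, 0.42 and 0.53 on the Slug-/- arrays, against 0.12, 0.01 and 0.56 on the Slug+/+ arrays. The mean was larger by 0.37 in Slug-/- SCs, with overlapping arrays (two-sided exact permutation test, p = 0.3). With 3 arrays against 3 no p under 0.1 can be reached.

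*Dag1* encodes dystroglycan, which is cut into the α subunit that binds laminin through its sugars and the β subunit that spans the membrane and binds dystrophin or utrophin. Its values were 9.57, 9.88 and 10.09 in Slug-/- SCs, against 9.54, 9.29 and 9.58 in Slug+/+ SCs. Slug-/- replicates 2 and 3 were above every Slug+/+ array, and Slug-/- replicate 1 lay just under the highest of them. The means were 9.85 ± 0.26 in Slug-/- and 9.47 ± 0.16 in Slug+/+ SCs (SD, n = 3 each), a fold of 1.30 (difference 0.38, 95% interval -0.09 to 0.84, adjusted p = 0.897 from limma). Its unadjusted p was 0.0964. Without Slug-/- replicate 1 the difference was 0.52, with an unadjusted p of 0.0420 and an adjusted p of 0.888 from limma.

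The sarcoglycans are membrane proteins that sit beside dystroglycan and stabilise the complex. *Sgca* (α-sarcoglycan, found in skeletal and cardiac muscle) had 6.59, 7.38 and 7.01 on the Slug-/- arrays, against 7.10, 6.38 and 7.25 on the Slug+/+ arrays. The genotypes covered almost the same range, and the difference was 0.08 (95% interval -0.61 to 0.77, adjusted p = 0.986 from limma). Its sign turned without Slug+/+ replicate 2, at -0.18, or without Slug-/- replicate 2, at -0.11, and with quantile normalization, at -0.01.
*Sgce* encodes ε-sarcoglycan, a more widely expressed paralog of α-sarcoglycan. It had 5.86, 5.97 and 5.83 on the Slug-/- arrays, against 5.84, 5.81 and 6.01 on the Slug+/+ arrays. These 6 values span 0.20, the smallest range of the 8 genes, and 3.50% of all genes had a smaller pooled SD within genotypes. The difference was 0.00 (95% interval -0.38 to 0.38, adjusted p = 0.999 from limma). Set against each other within arrays, *Sgca* minus *Sgce* changed by 0.08 in Slug-/- SCs (two-sided exact permutation test, p = 0.7).
*Sgcb* encodes β-sarcoglycan, which pairs with δ-sarcoglycan early in the assembly of the sarcoglycans. It had 5.69, 6.52 and 6.02 on the Slug-/- arrays, against 5.73, 5.59 and 6.13 on the Slug+/+ arrays. Slug-/- replicate 2 was highest, and the other Slug-/- arrays lay among the Slug+/+ arrays. The difference was 0.26 (95% interval -0.35 to 0.86, adjusted p = 0.936 from limma), and it was 0.03 without Slug-/- replicate 2.
*Sgcd* (δ-sarcoglycan) had 2.87, 2.41 and 3.23 on the Slug-/- arrays, against 2.60, 4.28 and 2.46 on the Slug+/+ arrays. Only Slug-/- replicate 3 and Slug+/+ replicate 2 were above background, and Slug+/+ replicate 2 stood far above the rest. The difference was -0.28 (95% interval -1.40 to 0.85, adjusted p = 0.967 from limma), and without Slug+/+ replicate 2 it was 0.30. Of all genes, 96.4% had a smaller pooled SD within genotypes than *Sgcd*. *Sgcb* minus *Sgcd* changed by 0.53 within arrays (two-sided exact permutation test, p = 0.6), but with *Sgcd* under background on 4 of 6 arrays this is a difference against a floor, and it was -0.16 without Slug+/+ replicate 2.

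*Dtna* encodes α-dystrobrevin, a cytoplasmic relative of dystrophin that binds it and anchors syntrophins. It had 3.65, 3.72 and 2.92 on the Slug-/- arrays, against 3.06, 2.97 and 2.78 on the Slug+/+ arrays. Slug-/- replicates 1 and 2 were above every Slug+/+ array, while Slug-/- replicate 3 lay among the Slug+/+ arrays and under background. Of the Slug+/+ arrays, 1 was just above background. The means were 3.43 ± 0.45 in Slug-/- and 2.94 ± 0.14 in Slug+/+ SCs (SD, n = 3 each), a fold of 1.41 (difference 0.50, 95% interval -0.08 to 1.07, adjusted p = 0.896 from limma). Its unadjusted p of 0.0836 was the smallest of the 8 genes. With quantile normalization the unadjusted p was 0.0466, and without Slug-/- replicate 3 the difference was 0.75 with an unadjusted p of 0.00758 (adjusted p = 0.874 and 0.926 from limma).
*Dtnb* encodes β-dystrobrevin, the paralog of α-dystrobrevin used mainly outside muscle fibres. It had 5.75, 5.88 and 6.28 on the Slug-/- arrays, against 5.93, 6.53 and 7.06 on the Slug+/+ arrays, with a difference of -0.54 (adjusted p = 0.904 from limma). Here the Slug-/- arrays were the lower ones, with overlap. *Dtna* minus *Dtnb* changed by 1.03 within arrays (two-sided exact permutation test, p = 0.2), with *Dtna* under background on 3 of 6 arrays, and by 0.68 without Slug+/+ replicate 3. Over the 4 paralog or partner pairs compared in this way, the adjusted p was 0.6 for *Utrn* and *Dmd*, 0.6 for *Dtna* and *Dtnb*, and 0.7 for both sarcoglycan pairs (Benjamini-Hochberg on exact permutation tests).

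The 8 genes did not share a single pattern over the arrays. Slug-/- replicate 2 had the highest value of *Sgca*, *Sgcb* and *Dtna* and the lowest of *Dmd* and *Sgcd*. Slug-/- replicate 3 had the highest *Dmd* and *Dag1*, and Slug-/- replicate 1 the highest *Utrn*. Slug+/+ replicate 2 had the lowest *Dag1*, *Sgca*, *Sgcb* and *Sgce* and the highest *Sgcd*. Set on each gene's own mean over the 6 arrays, the median of the 8 genes was -0.09, 0.16 and 0.14 on the Slug-/- arrays, against -0.13, -0.28 and 0.11 on the Slug+/+ arrays. Slug+/+ replicate 3 thus lay among the Slug-/- arrays.
The genes whose pattern over the 6 arrays was closest to that of *Dmd* were *Npdc1*, *Rad51d*, *Trim56* and *Gata4*. Their root mean square distance from it was 0.040, 0.045, 0.046 and 0.047 on the log2 scale, among 11837 other genes above background and with each gene centred on its own mean. *Dmd* itself varied little, with a range of 0.34 over the 6 arrays, so steady genes lie near it by this measure. Shared regulation was not tested.

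Beyond the 8 genes, 67 further genes of the complex and its partners were listed by role, of which 60 were measured and 7 were not analysed here. At a fold over 2 with an unadjusted p under 0.05, limma called 0 of these 60. At an unadjusted p under 0.05 alone, 4 were higher in Slug-/- SCs and 1 was lower, 3.31% of all genes being higher and 2.49% lower at that threshold. Their median difference was 0.04.

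Among 11 other subunits, paralogs and cytoplasmic partners, 5 differences were positive and 6 negative, with a median of -0.03. Limma put 0 of them at an unadjusted p under 0.05. *Sntb2* encodes β2-syntrophin, an adaptor held by dystrophin and dystrobrevin. It had 7.26, 7.46 and 7.41 on the Slug-/- arrays, against 7.37, 6.81 and 6.71 on the Slug+/+ arrays, with a difference of 0.42 (adjusted p = 0.897 from limma). Only Slug+/+ replicate 1 reached into the Slug-/- range, and without it the difference was 0.62 with an unadjusted p of 0.0140 (adjusted p = 0.907 from limma). *Dtnb* was at -0.83 without the same array, with an unadjusted p of 0.0181 (adjusted p = 0.942 from limma). No other alternative setting put *Sntb2* at an unadjusted p under 0.05. For *Dtnb* only quantile normalization and a replicate block did so besides (unadjusted p = 0.0425 and 0.0411 from limma). *Sspn* encodes sarcospan, the small membrane protein that sits with the sarcoglycans, and *Sgcz* encodes ζ-sarcoglycan. Their differences were 0.30 and -0.27, and *Sgcz* was under background on every array. *Sntb1*, which encodes β1-syntrophin, was at -0.23.

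Enzymes that build the sugar chain by which dystroglycan holds laminin gave most of the small unadjusted p-values. Of 14 measured, 9 differences were positive, with a median of 0.09, and 3 genes were higher in Slug-/- SCs at an unadjusted p under 0.05, with arrays that did not overlap (5.24% of all genes were higher without overlap). These 3 did not pass a fold of 2. *Dolk*, the kinase that makes the lipid carrier dolichol phosphate, had 4.02, 3.97 and 4.14 on the Slug-/- arrays, against 2.84, 3.22 and 3.43 on the Slug+/+ arrays. This was a fold of 1.84 (difference 0.88, standard error 0.20, adjusted p = 0.726 from limma). Slug+/+ replicate 1 was under background, and without Slug+/+ replicate 3 the difference passed a fold of 2, at 1.01.
*Rxylt1*, a xylosyltransferase that extends the chain on dystroglycan, had 4.97, 4.70 and 4.74 in Slug-/- SCs, against 4.33, 3.79 and 4.03 in Slug+/+ SCs, a fold of 1.68 (adjusted p = 0.792 from limma). *Dpm1*, the catalytic subunit of the enzyme that loads mannose on dolichol phosphate, had 7.16, 6.78 and 6.82 in Slug-/- SCs, against 5.92, 6.53 and 6.22 in Slug+/+ SCs, a fold of 1.62 (adjusted p = 0.823 from limma). *Dolk*, *Rxylt1* and *Dpm1* stayed at an unadjusted p under 0.05 in all 15 alternative settings. *Dolk* and *Dpm1* also serve other kinds of glycosylation.
*Pomt2*, part of the enzyme that adds the first mannose, ran the other way. It had 5.85, 4.29 and 4.34 on the Slug-/- arrays, against 5.54, 5.59 and 5.96 on the Slug+/+ arrays, with a difference of -0.87 (adjusted p = 0.879 from limma). Slug-/- replicates 2 and 3 were more than a log2 unit under every Slug+/+ array, and Slug-/- replicate 1 was not. Without Slug-/- replicate 1 the difference was -1.38, which passed a fold of 2 (unadjusted p = 0.000462, adjusted p = 0.586 from limma). In no other alternative setting did *Pomt2* have an unadjusted p under 0.05.

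**Figure D3:**
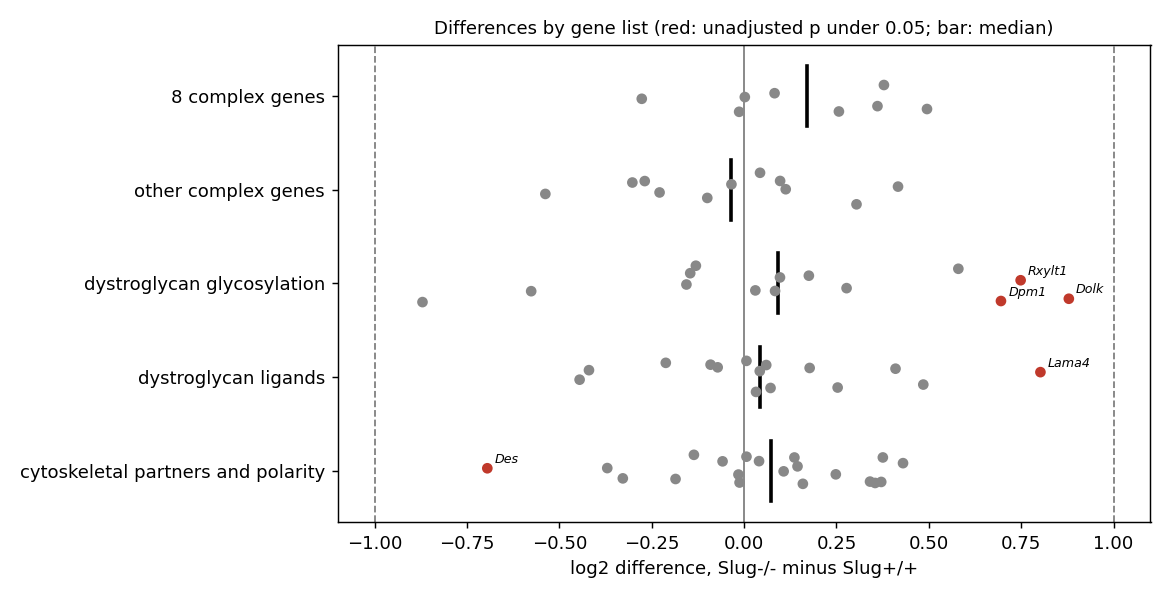
Log2 difference, Slug-/- minus Slug+/+ (x axis), of the 8 complex genes and of each measured gene of 4 lists (rows), with genes at an unadjusted p under 0.05 from limma in red and named, list medians as black bars and a fold of 2 dashed. No point lies past a dashed line, and 3 of the 5 red points are glycosylation enzymes.

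Of 15 ligands of dystroglycan and their basement membrane partners, 10 differences were positive, with a median of 0.04, and 1 was higher at an unadjusted p under 0.05. That gene was *Lama4*, the laminin α4 chain, with 4.34, 4.25 and 3.41 on the Slug-/- arrays, against 2.95, 3.18 and 3.46 on the Slug+/+ arrays (difference 0.80, adjusted p = 0.823 from limma). Slug+/+ replicate 1 was under background. Slug-/- replicate 3 lay among the Slug+/+ arrays, and without Slug-/- replicate 3 the difference was 1.10. *Lama4* kept an unadjusted p under 0.05 in 10 of 15 alternative settings, and lost it in the plain unpaired test and without Slug-/- replicate 1, Slug-/- replicate 2, Slug+/+ replicate 1 or Slug+/+ replicate 2. *Lama2*, the α2 chain that is the main laminin around muscle fibres and binds dystroglycan, had 7.46, 7.69 and 7.80 in Slug-/- SCs, against 7.49, 7.66 and 7.59 in Slug+/+ SCs, a difference of 0.07 (95% interval -0.33 to 0.47). *Lama5* (0.49), *Lamb2* (0.41) and *Nrxn2*, a neurexin (-0.45), had the next smallest p-values (adjusted p = 0.879, 0.908 and 0.914 from limma).

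Of 20 genes of cytoskeletal partners and SC polarity, 12 differences were positive, with a median of 0.07. *Des*, which encodes the muscle intermediate filament desmin, had 8.30, 8.50 and 9.04 on the Slug-/- arrays, against 9.19, 9.17 and 9.57 on the Slug+/+ arrays. The Slug-/- arrays were all lower, as for 5.4% of all genes (difference -0.69, standard error 0.24, unadjusted p = 0.0212, adjusted p = 0.823 from limma). It kept an unadjusted p under 0.05 in 11 of 15 alternative settings. *Mark2*, the partner of dystrophin in SC polarity, differed by 0.14 (adjusted p = 0.955 from limma). *Itga7* encodes the α7 subunit of the other main laminin receptor of muscle, *Ank3* an ankyrin that binds dystrophin and *Actg1* an actin held by dystrophin. Their differences were 0.35, 0.37 and -0.33 (adjusted p = 0.904, 0.908 and 0.904 from limma).

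Markers of other cells were read beside these genes, since in bulk samples fewer cells of a type and less RNA per cell cannot be told apart. Of 10 mature fibre markers, 7 averaged above background, and their summed signal on the linear scale was 222 to 299 on the Slug-/- arrays and 239.7 to 303 on the Slug+/+ arrays. Of 7 Schwann cell markers the sums were 620.0 to 774 in Slug-/- and 575 to 656 in Slug+/+ SCs. The brightest of these 7 was *Pmp22*, with means of 9.17 and 9.03. Of their differences, 6 were positive and 1 negative, with a median of 0.26 and 0 at an unadjusted p under 0.05 from limma. Of 9 markers of fibro-adipogenic progenitors the sums were 1271 to 1868 in Slug-/- and 1344 to 1809 in Slug+/+ SCs. These sums overlapped between genotypes, as did those of the endothelial, pericyte and smooth muscle, leukocyte and tenocyte lists. Sums follow the brightest genes, and single markers differed at an unadjusted p under 0.05 from limma, as did 5.8% of all genes. *Lum* (fibro-adipogenic, 1.05, past a fold of 2), *Tagln* (smooth muscle, 0.87) and *Emcn* (endothelial, 0.74) were higher in Slug-/- SCs. *Cd68* (leukocyte, -0.96) and *Atp2a1* (fibre, -0.66) were lower. *Emcn* was under background on all 6 arrays, and *Lum* was above it on only 1 of 3 Slug+/+ arrays. For *Tagln* and *Cd68* the arrays did not overlap. The same held for *Kdr* (endothelial) and *Ncmap* (Schwann cell), neither of them at an unadjusted p under 0.05 from limma. Over all genes, 10.6% had arrays that did not overlap. The sums of 9 cycling cell markers did not overlap, with 143 to 216 in Slug-/- and 56.9 to 81.3 in Slug+/+ SCs. Of these 9, 8 were higher and 1 lower in Slug-/- SCs. *Mki67* (2.47), *Cdk1* (2.39) and *Top2a* (1.56) passed a fold of 2 with an unadjusted p under 0.05 from limma. *Birc5* (0.76) and *Ccna2* (0.67) were higher at an unadjusted p under 0.05 from limma without passing a fold of 2. The arrays of these 5 genes did not overlap (5.24% of all genes were higher without overlap). Only 5 of the 9 averaged above background, and *Cdk1*, *Top2a*, *Birc5* and *Ccna2* were under it on all Slug+/+ arrays. The sums of 10 markers of differentiating myocytes did not overlap either, with 240.0 to 515 in Slug-/- and 151 to 217 in Slug+/+ SCs. There only *Myog* passed a fold of 2 with an unadjusted p under 0.05. *Myog* alone carried this last separation. Of the 9 other markers 6 were lower in value and 3 higher, and without *Myog* the sums overlapped, at 109.7 to 169.9 in Slug-/- and 115 to 152 in Slug+/+ SCs. The part of these shifts in the values of the complex genes was not tested.

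**Figure D4:**
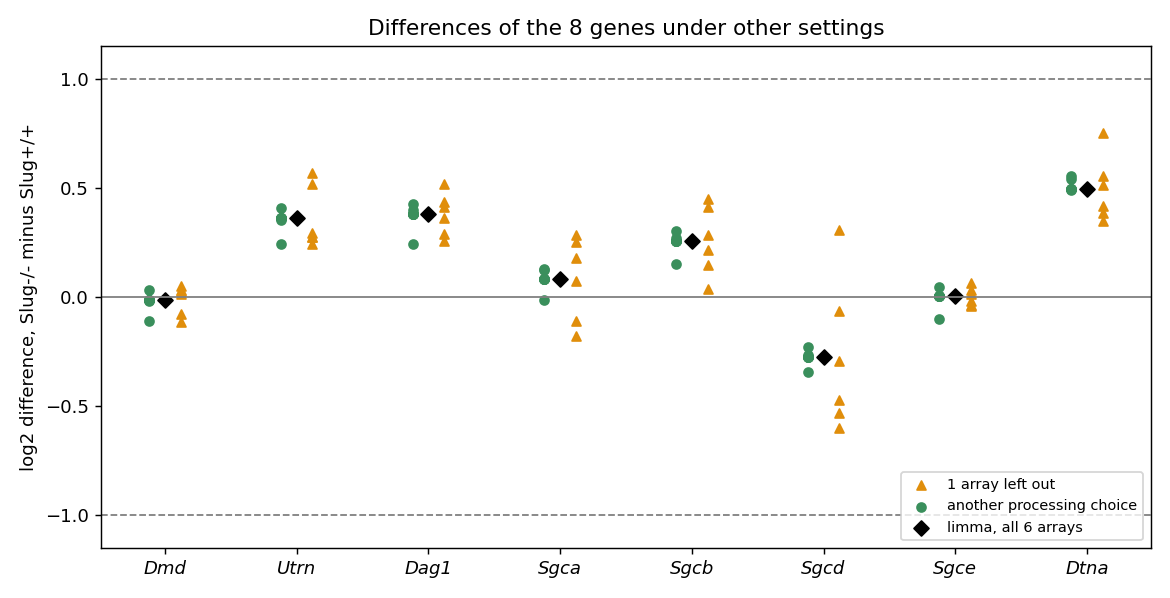
Log2 difference, Slug-/- minus Slug+/+ (y axis), of the 8 genes (x axis) in limma with all 6 arrays (black diamonds), under other processing choices (green circles) and with 1 array left out (orange triangles), with a fold of 2 dashed. *Utrn*, *Dag1*, *Sgcb* and *Dtna* stayed above 0 in all settings shown, *Dmd*, *Sgca*, *Sgcd* and *Sgce* lay on both sides of it, and none reached a fold of 2.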

How the data were processed

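Total RNA of sorted SCs was labelled for Affymetrix Mouse Gene 2.0 ST arrays, which the authors ran through Gene Expression Console of Affymetrix. No source used here names the algorithm. What the authors deposited is 1 log2 value for each of 41345 probe sets on each array. Nothing was pooled, and 0 value columns were left unused. Samples were mapped to genotype and replicate from their titles.

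Gene names came from the platform's annotation table. Probe sets with a single symbol (23521) were kept, and the brightest by mean stood for each of the 1082 genes that had several. Slug-/- arrays were compared with Slug+/+ arrays over 22180 genes by lmFit and eBayes of limma 3.58.1 under R 4.3.3, with 3.57 prior degrees of freedom and Benjamini-Hochberg adjustment, with no filter on dim genes. The steps were tested on simulated data. The complex genes, the gene lists, the tests and the alternatives were chosen with earlier results of these data known, so no list is independent evidence. Named genes are the 8 members, the targeted gene and sort markers, list members of smallest p or with a fixed partner role, and the 4 nearest to *Dmd*. Cell markers are named at an unadjusted p under 0.05 or without overlap. The paralog pairs were chosen after the values were seen. Differences between replicates of a genotype had an SD of 0.519 to 0.566, so no array repeated another. Alternatives covered an intensity trend with a robust prior, a plain unpaired test, other uses of probe sets, quantile normalization, median subtraction, a filter on dim genes, array weights, a replicate block, a fold of 1.5, and leaving out each array. Leaving arrays out of the pairs, and *Myog* out of its list, was chosen after seeing the data.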

Additional observations from a re-analysis of the deposited data

How the results depend on the processing

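No complex gene passed a fold of 2 with an unadjusted p under 0.05, or an adjusted p under 0.05, in any alternative. With all 6 arrays none passed a fold of 1.5 with an unadjusted p under 0.05 either, but *Dtna* did without Slug-/- replicate 3 (difference 0.75, unadjusted p = 0.00758). The count at an unadjusted p under 0.05 was 1 with quantile normalization and 0 to 1 with 1 array left out. *Utrn*, *Dag1*, *Sgcb* and *Dtna* kept their direction in all alternatives that gave a value (differences 0.24 to 0.57, 0.24 to 0.52, 0.03 to 0.45 and 0.35 to 0.75), and *Snai2* stayed past a fold of 2 with an unadjusted p under 0.05 (-1.65 to -1.35). Some alternatives could not change the difference of a gene with 1 probe set. These were the plain unpaired test, the intensity trend, the other uses of probe sets, the filter on dim genes and the replicate block. The sign of *Dmd*, *Sgca*, *Sgcd* and *Sgce* turned in some. *Dmd* was at 0.032 with array medians subtracted and *Sgca* and *Sgce* at -0.013 and -0.10 with quantile normalization. With 1 array left out *Dmd* ran between -0.12 and 0.051, *Sgca* between -0.18 and 0.28, *Sgcd* between -0.60 and 0.30 and *Sgce* between -0.040 and 0.062. The median differences of the lists then ran between -0.028 and 0.10 for other complex genes, 0.072 and 0.30 for glycosylation, -0.0030 and 0.15 for ligands and -0.081 and 0.14 for cytoskeletal partners. The cause was not tested. The filter on dim genes removed *Sgcd* and *Dtna*, which gave no value there.

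No label says whether same-numbered replicates share more than a number. Their deviations from the group means correlated at 0.03, 0.02 and 0.13 across genes. Of 6 samples, 2 correlated best with their own number, among 3 to choose from. These values cannot tell whether the replicates were paired. With the replicate number as a block limma called 0 genes at an adjusted p under 0.05. At a fold of 2 with an unadjusted p under 0.05 it called 225, against 199 without the block. At an unadjusted p under 0.05 alone it called 1443, against 1286. It called 0 of the 8 complex genes (differences as above, *Dtna* 0.50 with an unadjusted p of 0.0546). Of all genes, 99 passed a fold of 2 with an unadjusted p under 0.05 in the plain unpaired test and up to 391 with 1 array left out, here Slug+/+ replicate 3.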
